A study of Mus musculus with 8 samples.

Results

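The genes described here are 36 genes of glycolysis and of the response to low oxygen, chosen by name: 2 transporters, 15 glycolytic enzymes, 3 regulators of glycolytic flux, 14 targets of the hypoxia-inducible factors that are not glycolytic enzymes (called hypoxia-only targets below) and 2 alpha subunits of these factors. On the array, 32 of the 36 had a probe set of their own, and all 32 lay above the dim level of 4.85 on the log2 scale in all 8 arrays and were tested among 14403 genes. Gpi1, Pgam1, Eno1 and P4ha1 had no such probe set here, and no value is given for them. Where a gene had several probe sets, the one with the highest mean was used. For Aldoa, Tpi1, Gapdh and Ndrg1, 4 of the members, that probe set may also capture RNA of similar sequence, so their values are less sure.

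The cells were sorted from back skin with basal cell carcinomas, skin tumours driven by active Hedgehog signalling. All mice, the untreated ones included, were K14-CreER/Ptch1cKO animals, in which a Cre driven by the keratin 14 promoter deletes Ptch1, the receptor that restrains Smoothened, in basal keratinocytes. The 4 groups of 2 mice each were Vismodegib Lgr5+Lrig1+, Untreated Lgr5+Lrig1+, Vismodegib Lgr5-negative Lrig1+ (spelled Lrg5-Lrig1+ in the labels) and Untreated Lgr5-negative Lrig1+ cells, and both populations of a mouse were sorted from the same skin, by a green fluorescent Lgr5 reporter and an antibody to Lrig1. Vismodegib inhibits Smoothened; its dose and duration, and the age of the mice, are stated in no source used here, and the labels speak of drug-tolerant lesions beside the tumours. Lgr5 marks hair follicle stem cells and Lrig1 marks progenitors of the upper follicle. Arrays of mouse 1 and mouse 2 are given in that order throughout, and a vismodegib mouse and an untreated mouse with the same number are named as separate animals.

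Lgr5 itself read 9.44 and 10.03 in vismodegib and 10.98 and 11.00 in untreated Lgr5-positive cells, against 5.46 and 4.83 in vismodegib and 8.52 and 8.40 in untreated Lgr5-negative cells, so the untreated Lgr5-negative cells still carried Lgr5 signal. Gli1, a direct Hedgehog target, lay between 6.37 and 6.56 in the vismodegib arrays and between 8.75 and 10.13 in the untreated arrays. All 8 basal keratinocyte markers lay above the dim level in every array. A list of 18 macrophage, Langerhans and dendritic cell markers also differed between the groups, and no marker that excludes leukocytes is named for the sort. Its summed linear signal lay between 8705 and 12230 in vismodegib and between 1024 and 1259 in untreated Lgr5-positive cells, and between 6088 and 8624 in vismodegib and between 3239 and 4147 in untreated Lgr5-negative cells. Of the 18, between 13 and 15 lay above the dim level in untreated Lgr5-positive arrays and 17 or 18 in the others. This signal was thus lowest in the arrays in which most members were lowest, and its part in the results below was not tested. T cell markers summed to between 620.1 and 708.5 over all arrays, and fibroblast, endothelial and melanocyte markers each to at most 447.8. In sorted bulk RNA, fewer cells of a type and less RNA per cell cannot be told apart.

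Glycolysis splits glucose into pyruvate, which cells reduce to lactate and export when oxygen is scarce or when they grow on fermented sugar. When oxygen falls, the alpha subunits Hif1a and Epas1 escape hydroxylation by the Egln enzymes, pair with Arnt and bind DNA at a short core, ACGTG or GCGTG, near genes of glycolysis, blood vessel growth, mitophagy and redox control. Because Hif proteins are set mainly by breakdown of the protein, their RNA levels do not report their activity, and arrays of RNA do not measure the flux of sugar.

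To show what this core looks like in the genes described, the 250 bases before the start site were read from RefSeq promoter windows (build GRCm38.p6), which held 33 of the 36 members. Bnip3l, Epas1 and Ndrg1 are named only. ACGTG, on either strand, was found in 21 of the 33 (63.6%), against 22.4% of the 13605 array genes with a window. A gene with several start sites was counted if any of its windows matched. The 33 members had 47 windows and the 13605 genes had 17065, so these shares are not fully alike. GCGTG was found in 23 (69.7%), against 42.3%. A match to ACGTG stood in 10 of 12 hypoxia-only targets (83.3%), which had 13 windows, and in 7 of 15 enzymes (46.7%), which had 26. The windows of members that passed the test between untreated populations and hold at least 2 matches to ACGTG are printed 5′ to 3′, with each match, read as ACGTG or CACGT, in capitals. The palindrome CACGTG counts on both strands and is also the core of the E-box that other factors bind, and a match shows letters, not binding.
Ankrd37, chr8:45999851-46000100, minus strand: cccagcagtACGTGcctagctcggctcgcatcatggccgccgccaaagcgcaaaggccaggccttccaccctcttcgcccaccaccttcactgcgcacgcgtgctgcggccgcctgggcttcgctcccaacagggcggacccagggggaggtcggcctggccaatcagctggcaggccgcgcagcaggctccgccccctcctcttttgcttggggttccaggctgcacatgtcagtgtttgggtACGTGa
Bnip3, chr7:138909507-138909756, minus strand: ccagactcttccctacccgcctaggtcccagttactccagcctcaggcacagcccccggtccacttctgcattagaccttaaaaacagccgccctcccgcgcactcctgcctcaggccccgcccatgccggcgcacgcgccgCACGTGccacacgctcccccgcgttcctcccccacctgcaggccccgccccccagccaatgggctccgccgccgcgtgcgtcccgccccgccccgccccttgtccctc
Hif1a, chr12:73907617-73907866, plus strand: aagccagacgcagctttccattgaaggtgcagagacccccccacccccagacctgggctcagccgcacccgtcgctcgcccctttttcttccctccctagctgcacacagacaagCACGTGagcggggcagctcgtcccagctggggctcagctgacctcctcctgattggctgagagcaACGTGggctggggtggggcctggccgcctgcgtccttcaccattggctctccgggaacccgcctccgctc
Hk2, chr6:82774455-82774704, minus strand: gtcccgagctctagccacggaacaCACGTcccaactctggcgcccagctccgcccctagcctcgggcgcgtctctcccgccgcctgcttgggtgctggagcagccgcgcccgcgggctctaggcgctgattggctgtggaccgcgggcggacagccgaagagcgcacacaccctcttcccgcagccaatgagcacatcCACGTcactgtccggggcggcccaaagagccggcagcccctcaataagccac
Ldha, chr7:46845554-46845803, plus strand: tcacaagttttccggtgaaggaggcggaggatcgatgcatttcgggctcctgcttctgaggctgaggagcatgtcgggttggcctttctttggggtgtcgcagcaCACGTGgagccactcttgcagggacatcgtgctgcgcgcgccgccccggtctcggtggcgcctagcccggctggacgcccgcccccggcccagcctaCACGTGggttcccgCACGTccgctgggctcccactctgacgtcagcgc
Pgk1, chrX:106186850-106187099, plus strand: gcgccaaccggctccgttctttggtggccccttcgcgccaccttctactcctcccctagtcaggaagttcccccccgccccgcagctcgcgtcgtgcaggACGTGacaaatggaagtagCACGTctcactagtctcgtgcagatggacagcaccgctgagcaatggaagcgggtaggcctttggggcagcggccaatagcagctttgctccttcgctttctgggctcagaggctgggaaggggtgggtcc
Slc16a3, chr11:120948817-120949066, plus strand: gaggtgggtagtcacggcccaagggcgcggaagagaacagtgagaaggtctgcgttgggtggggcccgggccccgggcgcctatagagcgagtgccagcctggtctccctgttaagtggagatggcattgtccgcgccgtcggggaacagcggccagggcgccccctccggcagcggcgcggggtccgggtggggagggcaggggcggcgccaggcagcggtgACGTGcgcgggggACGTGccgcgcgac

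Ldha, whose enzyme turns pyruvate into lactate, holds 5 matches, the most of these 7 windows, counting its 2 palindromes on both strands. Hif1a itself holds 3, and the other printed windows hold 2 each. Ldha has another start window, not printed, which holds no match to ACGTG. Hk2 is the only gene of the 7 that was higher in untreated Lgr5-positive cells, and its call was lost under 7 of 18 alternatives. Pfkm and Pfkfb3 also have a window with 2 matches, not printed, and did not pass between untreated populations. Among members lower in these cells 14 of 19 held ACGTG (73.7%), and among the members tested and not lower 5 of 10 did (50%). GCGTG went the other way, in 12 of the 19 (63.2%) and 8 of the 10 (80%), and 2 or more matches to ACGTG stood in 31.6% and 30% of them.

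In untreated mice, Lgr5-positive cells had lower RNA of most of the measured members than the Lgr5-negative cells of the same skin. Of the 32 members, 21 were lower and 2 higher at a limma adjusted p under 0.05, against 10.9% of all tested genes lower and 6.21% higher, or 17.1% in both directions. The untreated populations did not overlap for 30 members, 26 lower and 4 higher, against 64.6% of all tested genes, 31.2% lower and 33.4% higher. The median log2 fold change of the members was -0.69 (all genes, 0.02), and 28 of the 32 lay below 0. Transporters, enzymes, regulators, hypoxia-only targets and both HIF alpha subunits were among the lower genes; Hk2 and Ddit4 were higher. For 18 members both untreated Lgr5-positive arrays lay below the other 6 arrays, and for Hk2 and Ddit4 they lay above them, where 14.2% and 13.8% of all tested genes did so. Of the 18 macrophage, Langerhans and dendritic cell markers 7 were lower in the same comparison, with a median of -0.86.

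**Figure D1:**
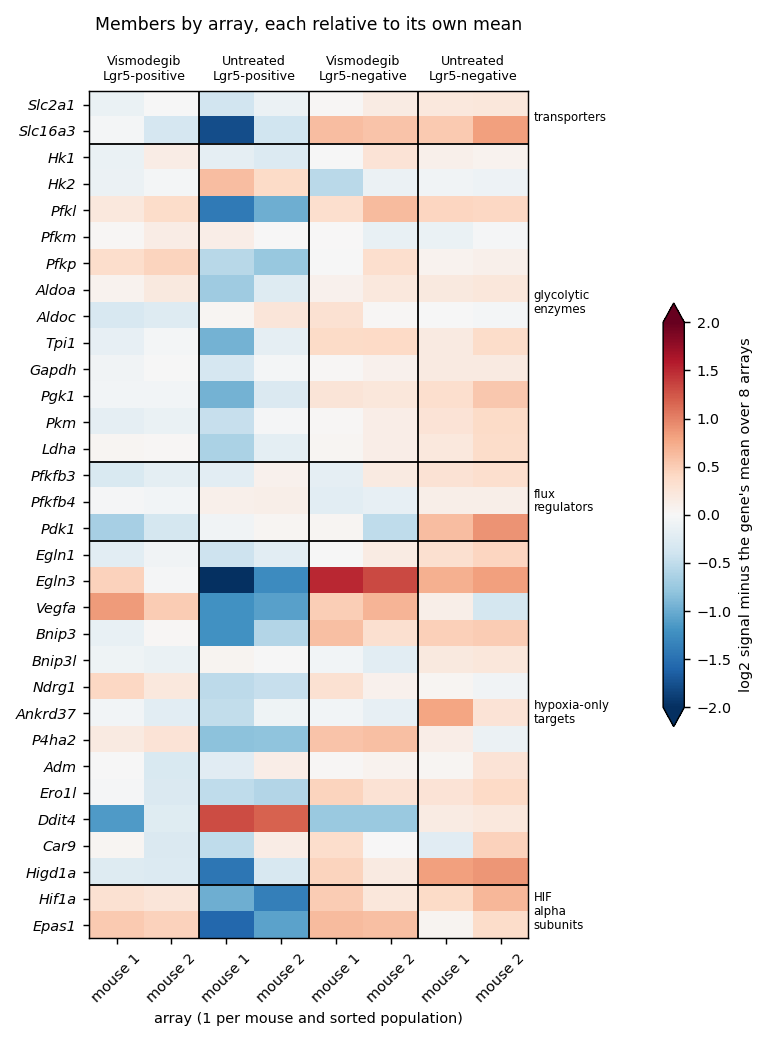
Log2 signal of the 32 measured members in each of the 8 arrays, as the deviation from the gene's own mean over the arrays, in colour, with genes in rows by class. The 2 untreated Lgr5-positive columns hold the lowest values for 18 members, and the highest for Hk2 and Ddit4.

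Sugar enters and lactate leaves through the transporters, and both were lower in untreated Lgr5-positive cells. Slc2a1, the main glucose importer of keratinocytes (GLUT1), read 11.69 and 11.81 in vismodegib and 11.43 and 11.70 in untreated Lgr5-positive cells, and 11.84 and 11.98 in vismodegib and 12.03 and 12.04 in untreated Lgr5-negative cells. Its untreated populations did not overlap, and the difference was small (-0.47 ± 0.13 on the log2 scale, ± SE; adjusted p = 0.0488, or 0.0575 with the mouse as a block, where it did not pass). Slc16a3, the lactate exporter MCT4, read 8.53 and 8.25 in vismodegib and 6.81 and 8.19 in untreated Lgr5-positive cells, and 9.20 and 9.16 in vismodegib and 9.10 and 9.40 in untreated Lgr5-negative cells. Both untreated Lgr5-positive arrays were the lowest of the 8 but lay far apart from each other, and the log2 fold change between untreated populations was -1.75 ± 0.38 (adjusted p = 0.0221).

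Among the 12 measured enzymes, 7 were lower and 1 was higher in untreated Lgr5-positive cells, with a median of -0.63. Of the phosphofructokinases, which make the committed step, Pfkl, the liver-type form, read 10.45 and 10.61 in vismodegib and 8.82 and 9.26 in untreated Lgr5-positive cells, and 10.58 and 10.87 in vismodegib and 10.67 and 10.65 in untreated Lgr5-negative cells. It was 3.07-fold lower in untreated Lgr5-positive cells (-1.62 ± 0.17, adjusted p = 0.00178), the largest difference among the enzymes, while its other 3 group values lay close together. A dimmer probe set of Pfkl differed by -0.332 and did not pass (adjusted p = 0.342). Another one, which like the one used can match several transcripts, had a mean of 10.205 against 10.238 and differed by -1.508. Pfkp, the platelet-type form, read 11.67 and 11.76 in vismodegib and 10.76 and 10.56 in untreated Lgr5-positive cells, and 11.30 and 11.65 in vismodegib and 11.38 and 11.42 in untreated Lgr5-negative cells, and differed by -0.74 ± 0.15 (adjusted p = 0.016). Pfkm, the muscle form, differed by 0.15 and did not pass (adjusted p = 0.431).

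Hk2, an inducible hexokinase that traps glucose in the cell, read 10.24 and 10.31 in vismodegib and 10.98 and 10.74 in untreated Lgr5-positive cells, and 9.81 and 10.24 in vismodegib and 10.28 and 10.25 in untreated Lgr5-negative cells. It was highest in both untreated Lgr5-positive arrays, with a log2 fold change of 0.59 ± 0.16 (adjusted p = 0.0453), whereas Hk1, the widespread form, differed by -0.32 and did not pass (adjusted p = 0.183). Aldoa, the main aldolase outside liver and brain, read 11.86 and 11.99 in vismodegib and 11.09 and 11.54 in untreated Lgr5-positive cells, and 11.89 and 12.00 in vismodegib and 11.99 and 12.02 in untreated Lgr5-negative cells, a difference of -0.69 ± 0.16 (adjusted p = 0.028). Aldoc, the brain-type aldolase, differed by 0.16 and did not pass (adjusted p = 0.475). Tpi1, which interconverts the triose phosphates, read 10.58 and 10.71 in vismodegib and 9.79 and 10.55 in untreated Lgr5-positive cells, and 11.12 and 11.13 in vismodegib and 10.91 and 11.11 in untreated Lgr5-negative cells. Its difference between untreated populations was -0.84 ± 0.23 (adjusted p = 0.0449), and the untreated Lgr5-positive array of mouse 1 was far below that of mouse 2.

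In the second stage of the pathway, which yields ATP, Pgk1 (phosphoglycerate kinase) read 11.46 and 11.47 in vismodegib and 10.57 and 11.23 in untreated Lgr5-positive cells, and 11.79 and 11.75 in vismodegib and 11.86 and 12.06 in untreated Lgr5-negative cells. Both untreated Lgr5-positive arrays were the lowest, and the gene was 2.08-fold lower there (-1.06 ± 0.20, adjusted p = 0.014). Pkm (pyruvate kinase) read 11.23 and 11.28 in vismodegib and 10.94 and 11.39 in untreated Lgr5-positive cells, and 11.43 and 11.55 in vismodegib and 11.68 and 11.79 in untreated Lgr5-negative cells, with the untreated populations apart by -0.57 ± 0.16 (adjusted p = 0.0484). Ldha read 12.22 and 12.21 in vismodegib and 11.55 and 11.99 in untreated Lgr5-positive cells, and 12.23 and 12.31 in vismodegib and 12.40 and 12.55 in untreated Lgr5-negative cells, with a difference of -0.70 ± 0.16 (adjusted p = 0.0239). Its lowest values again were those of the untreated Lgr5-positive arrays. Gapdh, often used as a loading control, read 12.54 and 12.59 in vismodegib and 12.26 and 12.56 in untreated Lgr5-positive cells, and 12.64 and 12.69 in vismodegib and 12.78 and 12.78 in untreated Lgr5-negative cells; its difference of -0.37 ± 0.13 did not pass (adjusted p = 0.0906). The array's own Gapdh control probe sets read 11.99, 11.64 and 12.12 at the 3′ end, middle and 5′ end in the untreated Lgr5-positive array of mouse 1, the lowest of the 8 arrays at each.

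Of the regulators of flux, 1 of 3 differed between untreated populations. Pdk1, a kinase that inhibits pyruvate dehydrogenase, read 8.30 and 8.61 in vismodegib and 8.89 and 9.01 in untreated Lgr5-positive cells, and 9.0 and 8.45 in vismodegib and 9.58 and 9.86 in untreated Lgr5-negative cells. It was lower in untreated Lgr5-positive than untreated Lgr5-negative cells, at -0.77 ± 0.21 (adjusted p = 0.0425, or 0.0504 with the mouse as a block, where it did not pass). Unlike most members, it was not lowest in untreated Lgr5-positive cells with the probe set used. There 3 of the 4 vismodegib arrays lay below both untreated Lgr5-positive arrays. The probe sets of Pdk1 disagreed on this point. From untreated to vismodegib Lgr5-positive cells the one used changed by -0.489, and the dimmer ones by -0.047 and 0.502. Pfkfb3 and Pfkfb4, which set the level of an activator of phosphofructokinase, differed by -0.37 and -0.01 and did not pass (adjusted p = 0.157 and 0.946).

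The HIF alpha subunits were both lower in untreated Lgr5-positive cells. Hif1a read 10.24 and 10.18 in vismodegib and 8.97 and 8.58 in untreated Lgr5-positive cells, and 10.45 and 10.17 in vismodegib and 10.33 and 10.60 in untreated Lgr5-negative cells. The untreated Lgr5-positive arrays lay more than a unit below the other 6, and the gene was 3.23-fold lower than in untreated Lgr5-negative cells (-1.69 ± 0.17, adjusted p = 0.00163). A dimmer probe set of Hif1a, with a mean of 6.69 against 9.94, differed by -0.18 and did not pass (adjusted p = 0.719). Epas1 (HIF-2alpha), first known from endothelium, read 8.98 and 8.91 in vismodegib and 6.87 and 7.39 in untreated Lgr5-positive cells, and 9.09 and 9.06 in vismodegib and 8.50 and 8.81 in untreated Lgr5-negative cells, with a difference of -1.53 ± 0.19 (adjusted p = 0.00267).

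Among the 13 measured hypoxia-only targets, 9 were lower and 1 was higher in untreated Lgr5-positive cells, with a median of -0.81. The sensors come first: Egln3, a prolyl hydroxylase that is itself a HIF target, read 9.87 and 9.39 in vismodegib and 5.87 and 8.15 in untreated Lgr5-positive cells, and 10.93 and 10.74 in vismodegib and 10.13 and 10.24 in untreated Lgr5-negative cells. It showed the largest difference of all members (-3.17 ± 0.61, adjusted p = 0.0138), and its untreated Lgr5-positive arrays differed from each other by more than any other group's. Egln1, the main oxygen sensor of the family, read 10.11 and 10.24 in vismodegib and 9.90 and 10.11 in untreated Lgr5-positive cells, and 10.30 and 10.49 in vismodegib and 10.65 and 10.74 in untreated Lgr5-negative cells, a difference of -0.69 ± 0.13 (adjusted p = 0.013). Vegfa, the secreted factor that draws in blood vessels, read 10.53 and 10.18 in vismodegib and 8.46 and 8.59 in untreated Lgr5-positive cells, and 10.17 and 10.36 in vismodegib and 9.79 and 9.33 in untreated Lgr5-negative cells. It was 2.05-fold lower in untreated Lgr5-positive cells (-1.04 ± 0.19, adjusted p = 0.0114), and it was high in the vismodegib arrays of both populations.

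Of the targets that act on mitochondria, Bnip3, a receptor for mitophagy, read 9.11 and 9.28 in vismodegib and 8.04 and 8.67 in untreated Lgr5-positive cells, and 9.85 and 9.58 in vismodegib and 9.74 and 9.76 in untreated Lgr5-negative cells, with a difference of -1.39 ± 0.21 (adjusted p = 0.00583). Its relative Bnip3l differed by -0.19 and did not pass (adjusted p = 0.282). Higd1a, a small protein of the respiratory chain, read 10.49 and 10.48 in vismodegib and 9.31 and 10.43 in untreated Lgr5-positive cells, and 11.20 and 10.93 in vismodegib and 11.57 and 11.64 in untreated Lgr5-negative cells. Its difference was -1.73 ± 0.32 (adjusted p = 0.011), and the untreated Lgr5-positive array of mouse 2 came close to the vismodegib Lgr5-positive arrays.

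Of the targets that fold and modify secreted protein, P4ha2, a collagen prolyl hydroxylase, read 7.36 and 7.47 in vismodegib and 6.37 and 6.39 in untreated Lgr5-positive cells, and 7.75 and 7.80 in vismodegib and 7.32 and 7.07 in untreated Lgr5-negative cells. Both untreated Lgr5-positive arrays were the lowest, and the difference was -0.81 ± 0.12 (adjusted p = 0.00604). Ero1l (Ero1a), an oxidase that forms disulfide bonds in the endoplasmic reticulum, read 8.93 and 8.65 in vismodegib and 8.43 and 8.37 in untreated Lgr5-positive cells, and 9.39 and 9.23 in vismodegib and 9.22 and 9.34 in untreated Lgr5-negative cells, a difference of -0.88 ± 0.14 (adjusted p = 0.00625). Ndrg1, a stress-response gene of differentiating epithelium, read 11.04 and 10.84 in vismodegib and 10.11 and 10.17 in untreated Lgr5-positive cells, and 10.94 and 10.72 in vismodegib and 10.67 and 10.57 in untreated Lgr5-negative cells, a difference of -0.48 ± 0.13 (adjusted p = 0.0448). Ankrd37, an ankyrin repeat protein known as a HIF target, read 6.96 and 6.80 in vismodegib and 6.52 and 6.93 in untreated Lgr5-positive cells, and 6.96 and 6.85 in vismodegib and 7.81 and 7.30 in untreated Lgr5-negative cells, a difference of -0.83 ± 0.20 (adjusted p = 0.0323). Untreated Lgr5-negative cells, not untreated Lgr5-positive ones, stood apart for this gene.

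Ddit4 (REDD1), a stress-induced inhibitor of mTORC1, went the other way. It read 7.74 and 8.65 in vismodegib and 10.18 and 10.06 in untreated Lgr5-positive cells, and 8.14 and 8.14 in vismodegib and 9.05 and 9.10 in untreated Lgr5-negative cells. Both untreated Lgr5-positive arrays were above the other 6, at 2.06-fold over untreated Lgr5-negative cells (1.04 ± 0.26, adjusted p = 0.0327). Adm, a vasodilating peptide, and Car9, a carbonic anhydrase at the cell surface, differed by -0.21 and -0.29 (adjusted p = 0.444 and 0.532); both read between 5.56 and 6.80, nearer the dim level than most members.

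**Figure D2:**
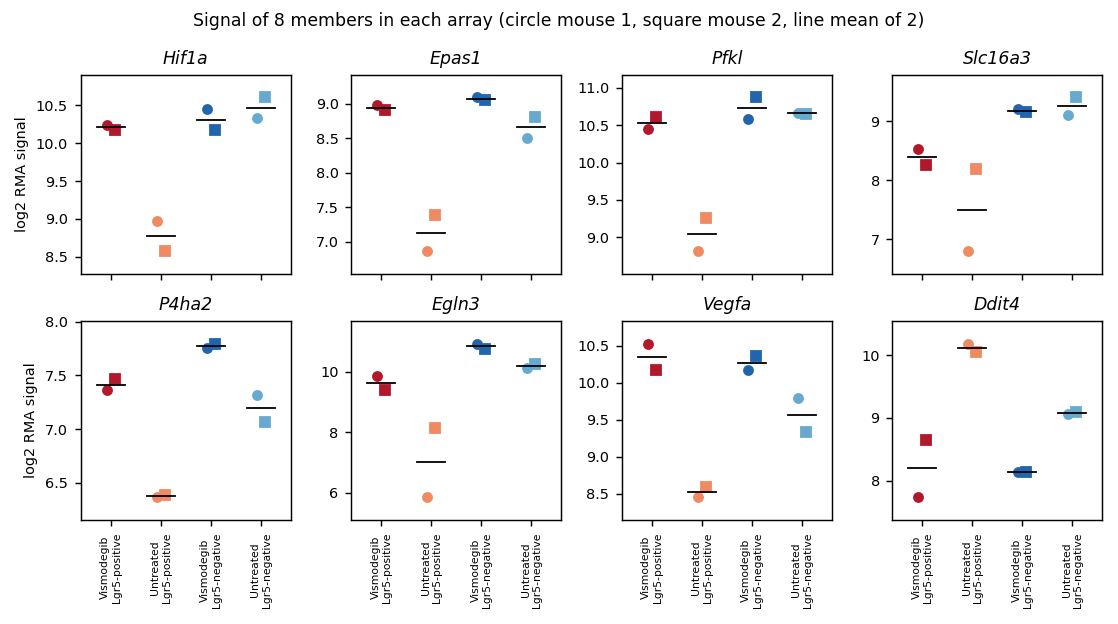
Log2 signal of 8 members in every array, with groups on the x axis, a circle for mouse 1, a square for mouse 2 and a line at the mean of 2 mice. Hif1a read 8.97 and 8.58 in untreated Lgr5-positive cells and above 10 in the other arrays, and the 2 untreated Lgr5-positive arrays of Egln3 lie at 5.87 and 8.15.

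Setting the classes side by side, the enzymes and the hypoxia-only targets were lowest in the same arrays. As the mean deviation of a class from its 8-array mean, the enzymes lay at -0.03 and 0.07 in vismodegib and -0.45 and -0.20 in untreated Lgr5-positive cells, and at 0.08 and 0.18 in vismodegib and 0.15 and 0.21 in untreated Lgr5-negative cells. The hypoxia-only targets lay at 0.00 and -0.06 in vismodegib and -0.73 and -0.31 in untreated Lgr5-positive cells, and at 0.30 and 0.20 in vismodegib and 0.30 and 0.30 in untreated Lgr5-negative cells. The 2 HIF alpha subunits lay at 0.42 and 0.35 in vismodegib and -1.28 and -1.21 in untreated Lgr5-positive cells, and at 0.57 and 0.42 in vismodegib and 0.22 and 0.51 in untreated Lgr5-negative cells. In each of these 3 classes both untreated Lgr5-positive arrays were the lowest, and the classes were not tested against each other. The same held for the 2 transporters (-1.07 and -0.26). It did not hold for the 3 flux regulators. Their untreated Lgr5-positive arrays, at -0.06 and 0.08, lay above the vismodegib arrays of both populations, which lay between -0.33 and -0.12. Within mice, 28 of the 32 members were lower in the Lgr5-positive cells of untreated mouse 1 and 28 in those of untreated mouse 2, where 49.1% and 47.5% of all genes were. The medians of these within-mouse differences were -0.74 and -0.52.

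**Figure D3:**
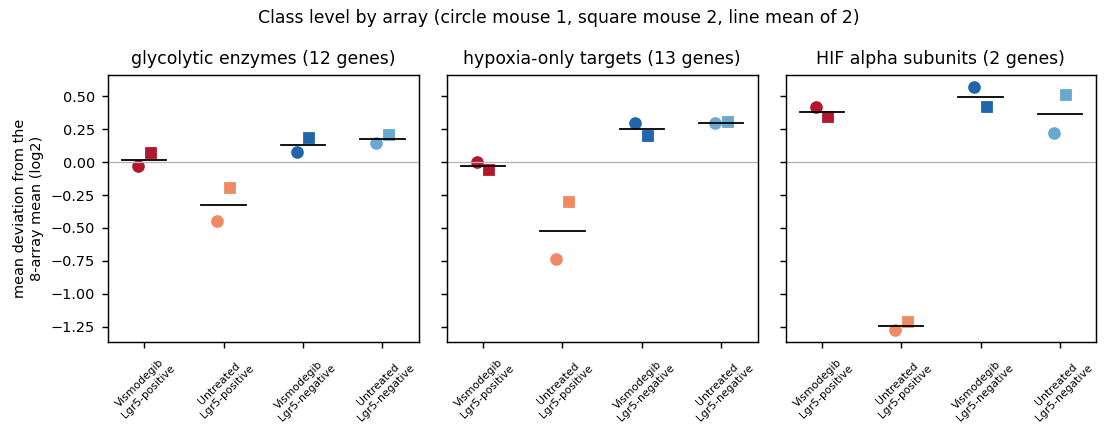
Mean deviation from the 8-array mean, on the log2 scale, of 12 enzymes, 13 hypoxia-only targets and 2 HIF alpha subunits in each array, with groups on the x axis, a circle for mouse 1, a square for mouse 2 and a line at the mean of 2 mice. Both untreated Lgr5-positive arrays lie lowest in each class, between -0.20 and -0.45 for the enzymes and at -1.28 and -1.21 for the subunits.

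The 2 untreated Lgr5-positive arrays also differed most from each other: over the members the median absolute difference between mice was 0.30 (all genes, 0.18). In vismodegib Lgr5-positive, vismodegib Lgr5-negative and untreated Lgr5-negative cells this median was 0.13, 0.16 and 0.10. The count of members passing between untreated populations depended on single arrays. It was 6 without either untreated Lgr5-negative array, 12 without the untreated Lgr5-positive array of mouse 1, 15 without either vismodegib Lgr5-positive array and 15 with only the 4 untreated arrays in the fit. Hk2 and Ddit4, the higher members, did not pass in any of the 4 fits that left out an untreated array. P4ha2 and Epas1 passed under all 18 alternatives; Bnip3, Ero1l, Vegfa, Pfkl and Hif1a passed under 17 of them, the exceptions being the fits without an untreated Lgr5-negative array for the first 3 and another choice of probe set for Pfkl and Hif1a. The calls were less firm for the others: those of Slc2a1, Tpi1 and Pkm were lost under 10 of the 18, of Pdk1 under 9, of Ndrg1 under 8, of Aldoa and Hk2 under 7, of Ankrd37 under 5, of Pfkp, Ldha and Ddit4 under 4, of Slc16a3 and Egln1 under 3 and of Pgk1, Egln3 and Higd1a under 2. For the 14 passing members with further probe sets, all 20 of these had the same sign as the one used.

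In mice given vismodegib, the same comparison of populations called 0 of the 32 members with limma (all genes, 0.472%). An unadjusted p under 0.05 was found for 4 of the 32 members and for 1749 of all 14403 genes, a similar share. The 4 with the smallest p were Ero1l at -0.52 ± 0.14 (adjusted p = 0.193), Aldoc at -0.45 ± 0.14 (adjusted p = 0.253), P4ha2 at -0.36 ± 0.12 (adjusted p = 0.31) and Bnip3 at -0.52 ± 0.21 (adjusted p = 0.381). All 4 fold changes were negative. The medians were -0.18 over all members, -0.11 over the enzymes and -0.22 over the hypoxia-only targets, with 24 of 32 below 0. Of the 18 macrophage, Langerhans and dendritic cell markers 2 were higher here. Hif1a differed by -0.10 (95% interval -0.51 to 0.31) and Epas1 by -0.13 (-0.57 to 0.30), and both intervals hold 0. Within mice, 25 and 23 of the 32 were lower in the Lgr5-positive cells of vismodegib mice 1 and 2, where 55.7% and 45% of all genes were.

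**Figure D4:**
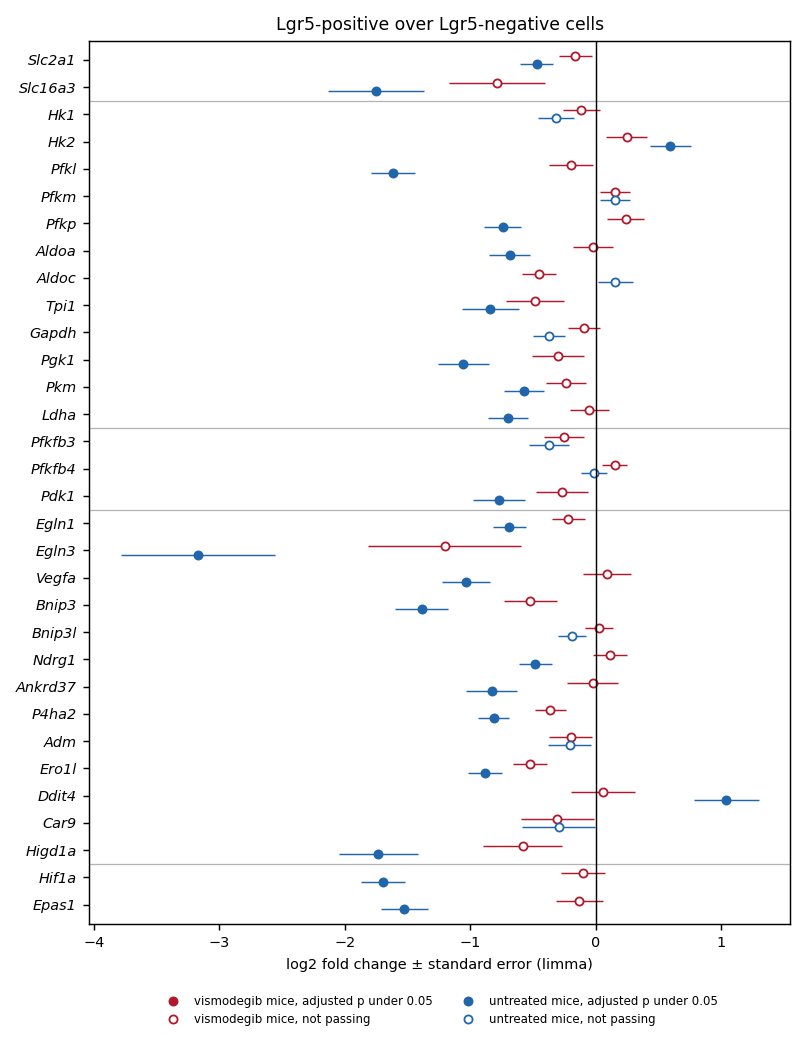
Log2 fold change of Lgr5-positive over Lgr5-negative cells with its standard error (limma) for each measured member, in vismodegib mice and in untreated mice, with filled points where the adjusted p is under 0.05. In vismodegib mice 0 points are filled; in untreated mice 23 are, of which 21 lie below 0 and Egln3 lies lowest at -3.17.

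Between treatments, 10 of the 32 members passed in Lgr5-positive cells, 9 higher and 1 lower with vismodegib (all genes, 6.37% higher and 4.51% lower, 10.9% in both directions). The untreated Lgr5-positive arrays that serve here as controls are the same arrays that were low against untreated Lgr5-negative cells, so the calls of both comparisons are not independent. The median over the members was 0.31, over the enzymes 0.34 and over the hypoxia-only targets 0.39. Both HIF alpha subunits were higher in vismodegib Lgr5-positive cells: Epas1 3.52-fold (1.81 ± 0.19, adjusted p = 0.00132) and Hif1a 2.71-fold (1.44 ± 0.17, adjusted p = 0.00268). Of the 12 enzymes 2 were higher, both phosphofructokinases: Pfkl by 1.49 ± 0.17 (adjusted p = 0.00223) and Pfkp by 1.06 ± 0.15 (adjusted p = 0.00503). With the probe set that does not match several transcripts, Hif1a was at 0.411 (adjusted p = 0.471) and Pfkl at 0.392 (adjusted p = 0.325), and neither passed. Neither transporter passed; Slc16a3 read 8.53 and 8.25 with vismodegib and 6.81 and 8.19 without, at 0.89 ± 0.38 (adjusted p = 0.201).

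Of the 13 hypoxia-only targets 5 were higher and 1 was lower. Egln3 had the largest increase (2.62 ± 0.61, adjusted p = 0.0348), which rests on untreated arrays at 5.87 and 8.15. Vegfa was 3.55-fold higher (1.83 ± 0.19, adjusted p = 0.00136), P4ha2 2.05-fold (1.03 ± 0.12, adjusted p = 0.00252), Bnip3 1.79-fold (0.84 ± 0.21, adjusted p = 0.0442) and Ndrg1 1.75-fold (0.80 ± 0.13, adjusted p = 0.00923). Ddit4 was 3.79-fold lower (-1.92 ± 0.26, adjusted p = 0.00394), although its 2 vismodegib Lgr5-positive arrays, at 7.74 and 8.65, were spread. P4ha2, Pfkp, Vegfa, Epas1 and Ddit4 passed under all 18 alternatives. Egln3 and Bnip3 did not pass without either vismodegib Lgr5-positive array or either untreated Lgr5-negative array, Bnip3 also not without the untreated Lgr5-positive array of mouse 1, and Ndrg1 not without the vismodegib Lgr5-positive array of mouse 1. Both Egln3 and Bnip3 were also lost with no filter on dim genes and with only the arrays compared. Bnip3 was further lost with cyclic loess and with a block by mouse number. In all, the call of Bnip3 was lost under 9 of the 18 alternatives and that of Egln3 under 6. Without the untreated Lgr5-positive array of mouse 2 the count was 16 instead of 10, with Slc16a3, Aldoa, Tpi1, Pgk1, Ldha and Higd1a added. Of the macrophage, Langerhans and dendritic cell markers 16 of 18 were higher in the same comparison, with a median of 2.47; their part in these calls was not tested.

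In Lgr5-negative cells vismodegib called 1 of 32 members, which was lower (all genes, 2.06% lower and 3.32% in both directions). This was Pdk1, at 9.0 and 8.45 with vismodegib and 9.58 and 9.86 without (-0.99 ± 0.21, adjusted p = 0.0495). This call was lost under 13 of 18 alternatives, and it held with no array left out other than the vismodegib Lgr5-negative array of mouse 1; without each of the other 7 arrays the adjusted p lay between 0.0609 and 0.323. The next by p were P4ha2 at 0.58 ± 0.12 (adjusted p = 0.0518), Vegfa at 0.70 ± 0.19 (adjusted p = 0.1) and Ddit4 at -0.94 ± 0.26 (adjusted p = 0.103), none past the threshold. The medians were -0.09 over the members, -0.03 over the enzymes and -0.03 over the hypoxia-only targets. Here 4 of the 18 macrophage, Langerhans and dendritic cell markers were higher.

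**Figure D5:**
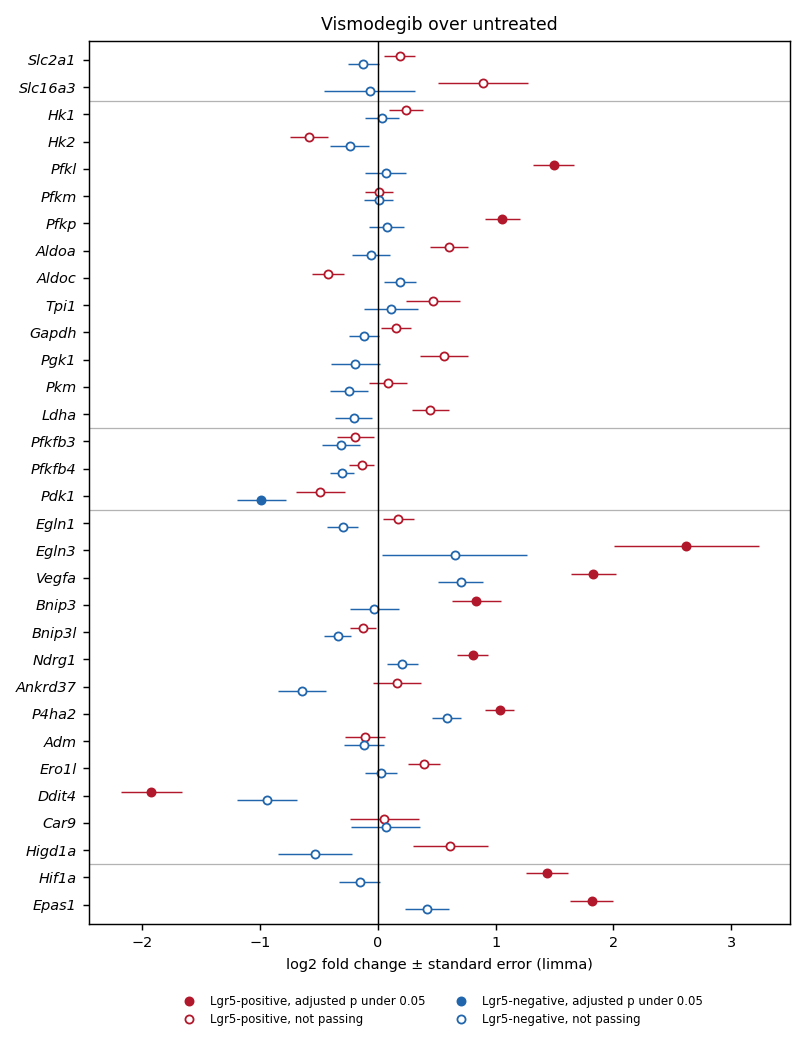
Log2 fold change of vismodegib over untreated with its standard error (limma) for each measured member, in Lgr5-positive cells and in Lgr5-negative cells, with filled points where the adjusted p is under 0.05. In Lgr5-positive cells 10 points are filled, from Ddit4 at -1.92 to Egln3 at 2.62; in Lgr5-negative cells 1 is, Pdk1 at -0.99.

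The difference between the 2 vismodegib effects was tested directly, and 2 of 32 members passed, both with a positive difference (all genes, 0.993% positive and 1.4% in both directions). The effect was larger in Lgr5-positive than in Lgr5-negative cells for Hif1a, by 1.59 ± 0.25 (adjusted p = 0.0336), and for Pfkl, by 1.42 ± 0.25 (adjusted p = 0.043). Epas1 at 1.40 ± 0.26 (adjusted p = 0.0546) and Pfkp at 0.98 ± 0.21 (adjusted p = 0.0752) came next and did not pass, although Epas1 did with the mouse as a block (adjusted p = 0.0265). With the dimmer probe sets the difference was -0.133 for Hif1a and 0.251 for Pfkl (adjusted p = 0.714), so neither passed. The count of members fell to 0 without either untreated Lgr5-negative array, without the vismodegib Lgr5-negative array of mouse 2 and without the vismodegib Lgr5-positive array of mouse 1. It was 1 without the untreated Lgr5-positive array of mouse 1, without the vismodegib Lgr5-negative array of mouse 1 and without the vismodegib Lgr5-positive array of mouse 2 (Ddit4 in place of both genes), and 7 without the untreated Lgr5-positive array of mouse 2.

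Other genes of these pathways were followed by lists written apart from the 36. Of 15 tested further glycolytic enzymes and transporters, 2 were lower and 2 higher in untreated Lgr5-positive cells (all genes, 10.9% and 6.21%). The median log2 fold change of the 15 was -0.03, with 7 positive and 8 negative, so the shift of the members was not seen in this list. Slc16a1, the lactate transporter MCT1, read 10.25 and 10.15 in vismodegib and 8.01 and 8.62 in untreated Lgr5-positive cells, and 10.28 and 10.18 in vismodegib and 10.11 and 10.42 in untreated Lgr5-negative cells. Both untreated Lgr5-positive arrays were the lowest, and the log2 fold change was -1.95 ± 0.21 against untreated Lgr5-negative cells (adjusted p = 0.00175), and 1.88 ± 0.21 with vismodegib in Lgr5-positive cells (adjusted p = 0.00176). Fbp1, an enzyme of glucose synthesis, was called lower (adjusted p = 0.0431, lost under 7 of 15 alternatives), but both its untreated Lgr5-positive arrays lay under the dim level, so no fold change is given. The enolases Eno3 (1.03 ± 0.21, adjusted p = 0.0163) and Eno2 (0.95 ± 0.22, adjusted p = 0.0264) were higher. Pfkfb2 was the other gene of this list higher with vismodegib in Lgr5-positive cells (0.82 ± 0.19, adjusted p = 0.0336). Its call was lost under 7 of 18 alternatives, that of Eno2 under 6 and that of Eno3 under 2.

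Of 26 tested further hypoxia targets, 5 were lower and 1 was higher in untreated Lgr5-positive cells, against the 10.9% and 6.21% of all genes. The median log2 fold change of the 26 was -0.099, with 11 positive and 15 negative. Among those that passed, the largest differences were those of Fam162a, a mitochondrial HIF target (-1.67 ± 0.22, adjusted p = 0.00349), Tfrc, the transferrin receptor (-1.20 ± 0.12, adjusted p = 0.00163), Zfp395 (0.87 ± 0.21, adjusted p = 0.0335) and Stc2, a secreted stanniocalcin (-0.86 ± 0.24, adjusted p = 0.0466). The call of Stc2 was lost under 10 of 18 alternatives, over which its difference ranged between -1.268 and -0.46, and that of Zfp395 under 4. Those of Fam162a and Tfrc held under all 18. With vismodegib in Lgr5-positive cells 6 of the 26 were higher and 3 lower (all genes, 6.37% and 4.51%). The median of the 26 was 0.09 there, with 14 positive and 12 negative. Among those that passed were Hmox1, the haem oxygenase, at 1.58 ± 0.23 (adjusted p = 0.00585) and Edn1, the vasoconstrictor endothelin, at -1.62 ± 0.39 (adjusted p = 0.0389). The call of Edn1 was lost under 8 of 18 alternatives, and that of Hmox1 held under all 18. Of 9 tested partners and regulators of the HIF subunits, 2 were higher in untreated Lgr5-positive cells (all genes, 6.21%). These were Arnt, the beta subunit (0.55 ± 0.14, adjusted p = 0.0351), which turned to -0.092 with another probe set, and the coactivator Crebbp (0.46 ± 0.13, adjusted p = 0.0454). With the mouse as a block neither passed (adjusted p = 0.0508 for Arnt and 0.0536 for Crebbp). In vismodegib mice 1 of the 26 hypoxia targets passed between populations (all genes, 0.472%). This was Errfi1, an inhibitor of the EGF receptor (0.84 ± 0.13, adjusted p = 0.0476), a call lost under 11 of 18 alternatives, with an adjusted p of up to 0.21.

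Lists for branches off glycolysis were counted in the same way, beside 10.9% of all genes lower and 6.21% higher between untreated populations. Of 5 tested genes of the pentose phosphate pathway, which makes NADPH and ribose, 3 were lower in untreated Lgr5-positive cells: Pgd (-1.18 ± 0.18, adjusted p = 0.00564), Taldo1 (-0.98 ± 0.14, adjusted p = 0.00422) and Tkt (-0.69 ± 0.12, adjusted p = 0.00918). The difference of Tkt was -0.034 with a probe set that does not match related transcripts (adjusted p = 0.912). Of 9 genes for the uptake or use of pyruvate in mitochondria, 3 were lower, among them Dlat, a subunit of pyruvate dehydrogenase (-1.33 ± 0.24, adjusted p = 0.0112), and Pdk2 was higher (1.08 ± 0.20, adjusted p = 0.0111). Of 7 glycogen genes, Pygb, the brain-type glycogen phosphorylase, read 8.11 and 8.19 in vismodegib and 10.28 and 10.21 in untreated Lgr5-positive cells, and 8.27 and 8.20 in vismodegib and 9.62 and 9.44 in untreated Lgr5-negative cells. It was lower with vismodegib in both populations, with log2 fold changes of -2.09 ± 0.12 in Lgr5-positive cells (adjusted p = 0.000184) and -1.30 ± 0.12 in Lgr5-negative cells (adjusted p = 0.00304). Pygl, the liver-type phosphorylase, read 8.05 and 7.94 in vismodegib and 7.43 and 7.23 in untreated Lgr5-positive cells, and 9.30 and 8.91 in vismodegib and 7.37 and 7.45 in untreated Lgr5-negative cells, and was higher by 0.67 ± 0.16 in Lgr5-positive cells (adjusted p = 0.0355) and 1.69 ± 0.16 in Lgr5-negative cells (adjusted p = 0.00307). The 2 phosphorylases thus moved in opposite directions with the drug, and each passed in Lgr5-negative cells under all 18 alternatives. In Lgr5-positive cells Pygb also passed under all 18, while the call of Pygl was lost under 7. Between untreated populations 1 of the 7 glycogen genes was lower, Pgm1 (-1.12), and 1 was higher, Pygb (0.72). Counts of 1 in 7 are near the shares of all genes.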

How the data were processed

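RNA of sorted cells was amplified and measured on Affymetrix mouse arrays, 1 array per population and mouse. Values were used as deposited, on the log2 scale; RMA is the tool in the submitters' processing notes, and its version is stated in no source used here. RMA corrects background, equalises the arrays' distributions and summarises each probe set, so shifts common to all genes are removed. Precision is limited by how few arrays there are.

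Of 45141 probe sets, 28898 named 1 gene (17097 genes), 551 several, 15588 none and 104 were controls. The probe set with the highest mean stood for each gene. A gene entered the test if 2 or more arrays exceeded 4.85, which is percentile 25 of the whole table; 14403 did. They were fitted with limma 3.58.1 in R 4.3.3 as a model of 4 group means, two-sided, where degrees of freedom were 4 (residual) plus 3.53 (prior). The Benjamini-Hochberg adjustment ran over all 14403, with a threshold of 0.05, and a member past it is said to have passed. For single values, an exact permutation test of 2 against 2 cannot go below p = 0.333. The procedure was also run on simulated data with independent noise and no mouse effect, so that run does not bear on the effect of shared mice.

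The members and lists were chosen with earlier results of these data known. Statistics are given for each member past the threshold or, where under 4 passed, the 4 with the smallest p. Values in every array are given for members that passed in any comparison. Of each other list, at most 4 genes that passed are named in a comparison, and others that passed go unnamed. The 18 alternatives were other filters, probe set choices, normalisation, priors, weights, arrays and mouse blocks, and leaving out each array. Both populations of a mouse come from the same animal: across genes, its arrays' deviations from the group means correlated at 0.211 for vismodegib and 0.142 for untreated mice. Numbers shared by a vismodegib and an untreated mouse pair nothing. Ero1l is now named Ero1a.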

Additional observations from a re-analysis of the deposited data

Results flagged for a closer look

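For 3 genes the vismodegib effect differed between the populations by a test of that difference with limma. Hif1a had a log2 difference of 1.59 ± 0.25 (adjusted p = 0.0336) between the effect in Lgr5-positive and that in Lgr5-negative cells. Pfkl had a difference of 1.42 ± 0.25 (adjusted p = 0.043). Slc16a1, the lactate transporter MCT1, had a difference of 1.92 ± 0.29 (adjusted p = 0.032). In each of them the vismodegib effect was positive in Lgr5-positive cells (1.44, 1.49 and 1.88) and between -0.16 and 0.07 in Lgr5-negative cells, and the untreated Lgr5-positive arrays were the lowest of the 8. Over 17 alternatives the test was past the threshold in 10 for Hif1a, in 6 for Pfkl and in 10 for Slc16a1.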

How the results depend on the processing

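With 2 mice a group, counts depended on single arrays. With each array left out in turn, the members passing ranged between 7 and 16 for vismodegib in Lgr5-positive cells (10 with all arrays), 0 and 1 for vismodegib in Lgr5-negative cells (1), 6 and 21 between untreated populations (23), 0 and 0 between vismodegib populations (0) and 0 and 7 for the difference between effects (2). Over all alternatives, the genes passing ranged between 541 and 1823 (1566), 58 and 524 (478), 573 and 2853 (2466), 11 and 107 (68) and 0 and 300 (202) in the same order of comparisons.

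Leaving out arrays, the median of the enzymes ranged between 0.158 and 0.486 and that of the hypoxia-only targets between 0.071 and 0.529 for vismodegib in Lgr5-positive cells. For vismodegib in Lgr5-negative cells they ranged between -0.11 and -0.011 and between -0.239 and 0.104, for untreated populations between -0.714 and -0.415 and between -0.823 and -0.624, and for vismodegib populations between -0.19 and -0.03 and between -0.309 and -0.177. For the difference between effects they ranged between 0.192 and 0.646 and between 0.445 and 0.576.

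For vismodegib in Lgr5-negative cells, 0 members passed with no filter on dim genes, with an intensity trend in the prior, with the replicate block by mouse number and with the random mouse block, and 2 passed with the mean of probe sets. Between untreated populations 15 passed with only the arrays compared. For the difference between effects 1 passed with no filter, 1 with cyclic loess, and 0 with probe sets other than those that match several transcripts, where one exists. With the same choice of probe sets the enzymes' untreated median was -0.469, and with cyclic loess -0.5. With the mean of probe sets the hypoxia-only targets' median difference between effects was 0.61. Reversed under the probe set choice were Arnt between untreated populations (-0.092) and Hif1a for the difference between effects (-0.133). With the mouse as a replicate block, 21 members passed between untreated populations, 0 between vismodegib populations and 3 for the difference between effects, where Epas1 was added. The cause of these changes was not tested. Of 80 results for single genes, 23 stayed on the same side of the threshold with the same sign under every alternative.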
